A study of Rattus norvegicus with 12 samples.

Results

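In the hippocampus of chronically stressed rats, 310 genes stood above their unstressed level, lay nearer to it in rats given fluoxetine, and stayed nearer to the stressed level in rats given albiflorin. They are 310 of 27068 Ensembl gene rows, and of 12750 rows averaging 1 FPKM or more (reads scaled by transcript length and library size) over all libraries. They were chosen by their values in all 12 libraries. The lowest CUMS-Sal library lay above the highest Ctrl-Sal and the highest CUMS-Flx library, the CUMS-Sal mean was at least 1.3 times the Ctrl-Sal mean, the CUMS-Flx mean lay below the midpoint of those 2 means, and the CUMS-Alb mean lay at or above it. Every level, fold and call of these genes below is therefore a description of the choice, and none is evidence for a drug effect.

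The hippocampal RNA came from Sprague Dawley rats stated to be 6 to 7 weeks old, with 4 groups and 3 libraries in each. Unstressed rats given saline formed the group Ctrl-Sal. The other rats underwent unpredictable mild stressors over 5 weeks (CUMS, chronic unpredictable mild stress). Of these, CUMS-Sal rats got saline, CUMS-Flx rats fluoxetine and CUMS-Alb rats albiflorin, given for 7 days. Albiflorin was dosed at 7 mg/kg/d. For fluoxetine the labels of single samples state 10 mg/kg/d, whereas the text on the series states 7. No unstressed group received a drug, and the labels do not say if replicate libraries are from different animals, so the spread between libraries may be partly technical.

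CUMS exposes rodents to changing mild stressors and is used as a model of depression. The hippocampus is rich in receptors for stress hormones and takes part in memory and in restraining the hormonal stress response. Fluoxetine blocks the reuptake of serotonin into nerve endings and is used as an antidepressant. Albiflorin is a monoterpene glycoside of peony root. The deposited table carries gene IDs without names, and 0 of the IDs matched the reference used here, so the genes are described by their values, lengths and reads. The roles of the genes, their promoter sequences and the cell type markers of the tissue were not analysed here.

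Libraries held 14735953 to 18109623 reads. Ctrl-Sal replicate 2 and CUMS-Flx replicate 1 stood apart from the other libraries of their groups when reads were compared in pairs. Mean chi-square per gene against counting noise was 13.6 and 24.0 for pairs with Ctrl-Sal replicate 2 and 8.165 for the remaining pair. For pairs with CUMS-Flx replicate 1 it was 9.53 and 12.4, and 3.61 for the remaining pair. The 9 genes with over 1% of all pooled reads each together held 20.4, 22.0 and 17.4% of the reads in the Ctrl-Sal libraries, 14.8, 14.8 and 15.0% in CUMS-Sal, 18.8, 15.5 and 15.3% in CUMS-Flx, and 14.6, 15.0 and 15.6% in CUMS-Alb. CUMS-Flx replicate 1 thus lay within the Ctrl-Sal range in this share, and the other drug libraries lay below that range. The part of this share in the results below was not tested. The rescaling given at the end used the sum of FPKM outside abundant genes, not this share of reads.

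CUMS-Sal lay above Ctrl-Sal without overlap in 3491 genes, 27.4% of the 12750, and 1591 of these also reached the ratio of 1.3 and are called stress-raised here. Of the 1591 stress-raised genes, 577 (36.3%) had a CUMS-Flx mean below the midpoint and 160 (10.1%) a CUMS-Alb mean below it. With the condition that all CUMS-Sal libraries exceed all libraries of the drug group, 391 (24.6%) and 102 (6.41%) remained. The 310 genes are those of the 391 with CUMS-Alb at or above the midpoint, and make up 19.5% of the stress-raised genes. With the drugs exchanged the same rule found 22 genes (1.38%), while 64 lay below the midpoint without overlap under both drugs. In 974 (61.2%) both drug means were at or above the midpoint.

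The CUMS-Sal libraries enter the rule in both the stress and the drug condition, so some return toward control is built into the choice. If 9 libraries were exchangeable, the orderings that put the 3 CUMS-Sal libraries above the 3 Ctrl-Sal libraries would also put them above 3 further libraries in 23.8% of cases. Among the stress-raised genes CUMS-Sal lay above all CUMS-Flx libraries in 534 (33.6%) and above all CUMS-Alb libraries in 224 (14.1%). Over all 12750 genes the same separations were found in 14% and 6.62%. With 1 drug library fewer, ordering alone gives 35.7%, and with 1 Ctrl-Sal library fewer 17.9%. These figures from ordering leave out the ratio of the means, a condition that the stress-raised genes also met. No excess or deficit against them is therefore read from the shares. With all libraries the fluoxetine share lay above the figure from ordering alone. Without CUMS-Flx replicate 1 the fluoxetine share was 34.9%, below the 35.7% for 1 drug library fewer. It was 43.4 and 53.4% without CUMS-Flx replicates 2 and 3, and 30.4, 35.005 and 27.4% without Ctrl-Sal replicates 1, 2 and 3. Without CUMS-Sal replicates 1, 2 and 3 it was 51.6, 44.7 and 43.6%, where ordering alone again gives 35.7%. The albiflorin share lay below the figure with all libraries. Leaving out CUMS-Alb replicates 1, 2 and 3 gave 28.4, 19.4 and 17.3%, also below the 35.7% for 1 drug library fewer. Leaving out Ctrl-Sal replicate 2 gave 17.0%. Genes are not independent, and none of these differences was tested. After setting every library's median deviation to 0 the shares were 29.1 and 15.4%, and after quantile normalization 27.9 and 15.3%.

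**Figure D1:**
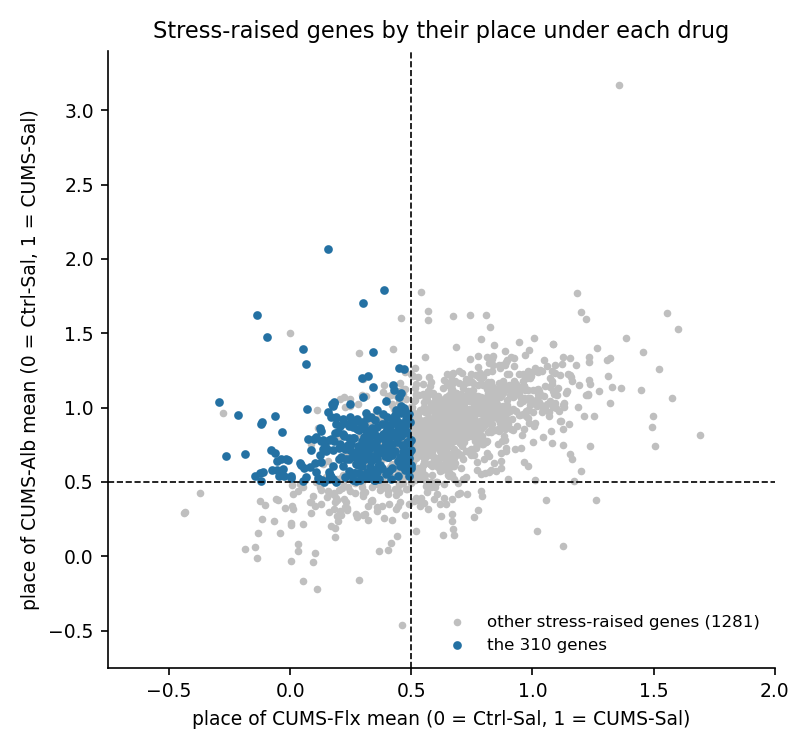
Place of the CUMS-Flx mean (horizontal axis) and of the CUMS-Alb mean (vertical axis) between the Ctrl-Sal mean (0) and the CUMS-Sal mean (1), no unit, 1 point per stress-raised gene. The 310 genes (blue) lie left of and above the dashed midpoints by the rule, and gray points to the left of 0.5 and above 0.5 failed the condition on overlap with CUMS-Flx.

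In these 310 genes the stress difference was moderate. The CUMS-Sal mean was a median of 1.45 times the Ctrl-Sal mean, from 1.3001 to 3.49, with 117 genes at 1.5 times or more and 24 at 2 times or more. On the scale log2(FPKM + 0.5), the median difference of the genes from their Ctrl-Sal mean was 0.52, 0.49 and 0.50 in CUMS-Sal replicates 1, 2 and 3. The Ctrl-Sal libraries themselves stood at 0.14, -0.25 and 0.10, so replicate 2 lay well below the other 2. The CUMS-Flx libraries stood at 0.09, 0.21 and 0.26, with replicate 1 below Ctrl-Sal replicate 1. The CUMS-Alb libraries stood at 0.47, 0.38 and 0.37, all above every CUMS-Flx library and below every CUMS-Sal library. All expressed genes together had a smaller shift in the same direction, at 0.10 to 0.12 in CUMS-Sal, 0.02 to 0.08 in CUMS-Flx and 0.08 to 0.12 in CUMS-Alb. Relative to it, the 310 genes stood at 0.38 to 0.41, 0.07 to 0.17 and 0.27 to 0.35 in the same 3 groups.

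**Figure D2:**
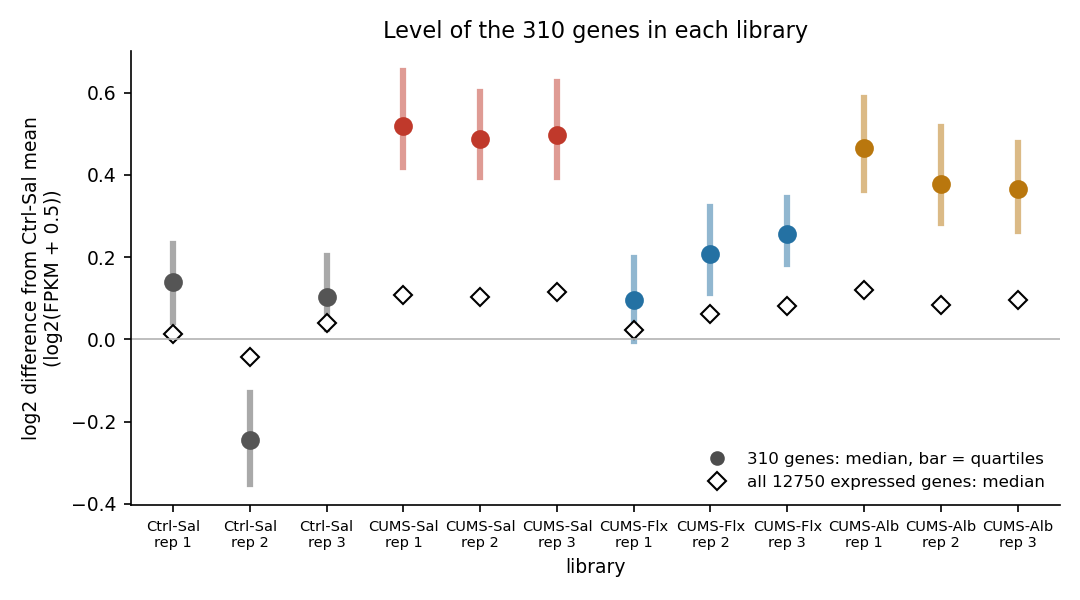
Median (dot) and quartiles (bar) of the 310 genes in each library, as log2 difference from the Ctrl-Sal mean of log2(FPKM + 0.5), with the median of all 12750 expressed genes as an open diamond. The CUMS-Sal dots sit at 0.49 to 0.52, the CUMS-Alb dots at 0.37 to 0.47 and the CUMS-Flx dots at 0.09 to 0.26, and Ctrl-Sal replicate 2 sits at -0.25.

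As a share of all reads, the 310 genes took 0.757, 0.568 and 0.739% in Ctrl-Sal, 1.01, 0.985 and 0.993% in CUMS-Sal, 0.728, 0.800 and 0.838% in CUMS-Flx, and 0.961, 0.905 and 0.894% in CUMS-Alb. Here too CUMS-Flx replicate 1 lay within the Ctrl-Sal range, and CUMS-Flx replicates 2 and 3 lay between Ctrl-Sal and CUMS-Alb. Fewer cells with these transcripts and less RNA per cell cannot be told apart in tissue RNA.

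Most of the return under fluoxetine was partial. The place of a mean is counted here from 0 at the Ctrl-Sal mean to 1 at the CUMS-Sal mean. The CUMS-Flx mean had a median place of 0.318, with quartiles of 0.19 and 0.411. It was at or below the Ctrl-Sal mean in 25 genes, between 0 and 0.25 in 77, and between 0.25 and the midpoint in 208, of which 92 lay at 0.4 or more. CUMS-Flx libraries overlapped the Ctrl-Sal libraries in 268 of the 310 genes and lay wholly above them in 42 (13.5%), against 12.7% of all 12750 genes. The CUMS-Alb mean had a median place of 0.744. It lay between 0.5 and 0.75 in 160 genes, 62 of them under 0.6, between 0.75 and 1 in 124, and at or above the CUMS-Sal mean in 26. CUMS-Alb libraries lay wholly above Ctrl-Sal in 239 genes (77.1%), against 26.7% of all genes. They reached the CUMS-Sal range in 254 and lay wholly below it in 56 (18.1%), against 6.62% of all genes wholly below. In 2 genes they lay wholly above it, a count not taken over all genes.

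The separation of the drugs from each other was less clear than the means imply. All CUMS-Alb libraries lay above all CUMS-Flx libraries in 158 of the 310 genes (51.0%), against 10.8% of all 12750 genes, and the libraries of the drugs overlapped in the rest. The ratio of the CUMS-Alb to the CUMS-Flx mean was a median of 1.18 and ranged from 1.02 to 2.34. In 103 genes (33.2%) CUMS-Flx overlapped Ctrl-Sal, CUMS-Alb reached the CUMS-Sal range, and CUMS-Alb lay wholly above CUMS-Flx and Ctrl-Sal, so that the libraries formed a low and a high set. The same sets were found in 220 (1.73%) of the 12750 genes. They were also found in 114 (21.3%) of the 534 stress-raised genes with CUMS-Sal above all CUMS-Flx libraries. The rule fixes the place of CUMS-Sal in the 310 genes. Its midpoint conditions also favour CUMS-Flx near Ctrl-Sal and CUMS-Alb above CUMS-Flx, so a higher share in the 310 genes is built in. In 3 genes the CUMS-Flx mean was at or below Ctrl-Sal and the CUMS-Alb mean at or above CUMS-Sal, the widest form of the pattern, and all 3 had a mean between 1.12 and 1.27 FPKM.

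Genes near the limits of the rule show how continuous the pattern is. The CUMS-Flx places nearest the midpoint were 0.498 and 0.499 inside it and 0.50033 and 0.501 outside it. The nearest CUMS-Alb places were 0.5001 and 0.501 inside and 0.499 and 0.499 outside. The lowest CUMS-Sal library was 1.0002 and 1.001 times the highest CUMS-Flx library in the nearest genes inside, and 0.99966 and 0.99851 times it in the nearest outside. Ratios of the CUMS-Sal to the Ctrl-Sal mean were 1.3001 and 1.3002 inside and 1.298 and 1.296 outside, and mean levels were 1.004 and 1.021 FPKM inside and 0.985 and 0.984 outside. With every other condition met, 81 genes failed only the albiflorin midpoint, 137 only the fluoxetine midpoint, 147 only the non-overlap of CUMS-Sal and CUMS-Flx, and 288 only the ratio of 1.3.

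Single libraries carried much of the pattern. Within the CUMS-Flx group, replicate 1 was the lowest library in 215 of the 310 genes (69.4%), against 50.5% of all expressed genes, and replicate 3 was the highest in 190 (61.3%), against 43.4%. Within Ctrl-Sal, replicate 2 was the lowest in 269 (86.8%), against 49.3%. Within CUMS-Alb, replicate 1 was the highest in 184 (59.4%), against 43.8%. The CUMS-Sal libraries had no such order, each being the lowest in 97, 114 and 99 of the genes. Within Ctrl-Sal the replicates of the 310 genes had a median SD of 0.25 on the log2 scale, and those of all expressed genes 0.14. For the 310 genes this SD was 0.09 in CUMS-Sal, 0.12 in CUMS-Flx and 0.11 in CUMS-Alb, against 0.10, 0.10 and 0.09 for all expressed genes. The other stress-raised genes had median log2 differences from the Ctrl-Sal mean of 0.13, -0.31 and 0.19 in Ctrl-Sal replicates 1, 2 and 3. In CUMS-Flx replicates 1, 2 and 3 these were 0.23, 0.42 and 0.47. The low Ctrl-Sal replicate 2 and CUMS-Flx replicate 1 were thus not particular to the 310 genes.

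To read libraries that had not chosen the genes, the rule was applied without each library in turn and the left-out library was then placed between the means of the remaining Ctrl-Sal and CUMS-Sal libraries. Without CUMS-Flx replicate 1 the rule took 239 genes, and in these the left-out library had a median place of 0.147 and lay below the midpoint in 214 (89.5%). Without CUMS-Flx replicate 2 it took 417 genes, and that library had a median place of 0.484 and lay below the midpoint in 221 (53.0%). Without CUMS-Flx replicate 3 it took 567 genes, and that library had a median place of 0.657 and lay below the midpoint in 174 (30.7%). The left-out fluoxetine libraries therefore differed, on a scale whose ends are means of libraries that chose the genes. Left-out Ctrl-Sal replicates 1, 2 and 3 had median places of 0.332, -0.501 and 0.276, and left-out CUMS-Sal libraries 0.719 to 0.817, in their own gene sets. CUMS-Flx replicate 1 lay within that Ctrl-Sal range, and replicates 2 and 3 lay between the ranges. All stress-raised genes, chosen without the condition on the drug, gave lower shares below the midpoint for CUMS-Flx replicates 1, 2 and 3, at 74.5, 32.8 and 21.7%. Both kinds of gene set share the Ctrl-Sal and CUMS-Sal libraries, and the condition on CUMS-Flx also favours genes with high CUMS-Sal values. The difference between them was not tested.

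**Figure D3:**
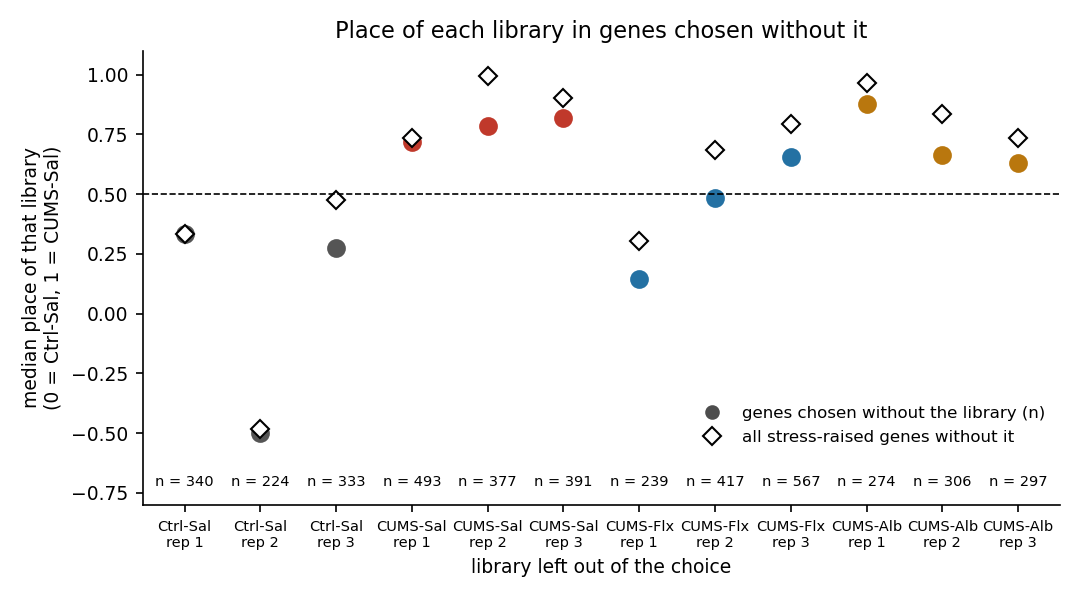
Median place (0 is the Ctrl-Sal mean, 1 the CUMS-Sal mean, no unit) of each library in genes chosen by the rule without it (dots, number of genes below) and in all stress-raised genes chosen without it (diamonds). CUMS-Flx replicates 1, 2 and 3 sit at 0.147, 0.484 and 0.657, and the left-out CUMS-Sal libraries at 0.719 to 0.817.

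In genes chosen without them, CUMS-Sal replicates 1, 2 and 3 had median places of 0.719, 0.785 and 0.817, where the libraries that chose the genes average 1, and lay at or above the midpoint in 71.0, 81.2 and 79.3% of 493, 377 and 391 genes. In all stress-raised genes chosen without them these shares were higher, at 73.3, 85.6 and 85.2%. The left-out CUMS-Sal libraries exceeded all 3 CUMS-Flx libraries in 61.9, 79.0 and 76.7% of the genes chosen by the rule without them, against 36.9, 37.6 and 40.2% of all expressed genes. The rule sets this to 100% for the libraries that chose the genes. All 3 CUMS-Flx libraries still chose these genes by their low values, so a share above that of all expressed genes is built in. The share over the stress-raised genes was not computed. The left-out CUMS-Alb libraries had median places of 0.878, 0.666 and 0.630 and lay at or above the midpoint in 86.5, 74.2 and 70.7%, against 87.9, 82.9 and 79.0% of all stress-raised genes. Ctrl-Sal replicates 1 and 3 had median places of 0.332 and 0.276, and replicate 2 lay at -0.501, below the mean of the other Ctrl-Sal libraries. In all stress-raised genes chosen without them, replicates 1, 2 and 3 lay at 0.335, -0.482 and 0.474. The left-out CUMS-Alb libraries all had higher median places than CUMS-Flx replicates 1 and 2, while CUMS-Flx replicate 3, at 0.657, lay between CUMS-Alb replicates 2 and 3. These places come from different gene sets. All 3 CUMS-Flx libraries had chosen the genes in which CUMS-Alb was placed, so the drugs are not compared by them. In all stress-raised genes the left-out CUMS-Flx replicates 1, 2 and 3 had median places of 0.306, 0.684 and 0.795. Those of CUMS-Alb had 0.965, 0.836 and 0.736.

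Limma, fitted over the 15253 rows that averaged 0.5 FPKM or more, called 205 of the 310 genes (66.1%) higher in CUMS-Sal than in Ctrl-Sal at a Benjamini-Hochberg adjusted p under 0.05, where 8.05% of all rows were called higher. At an unadjusted p under 0.05 these were 307 of the 310 and 25% of all rows. Their median log2 difference was 0.49, against 0.10 for all rows, and nothing is read from this share because the contrast chose the genes. After setting every library's median deviation to 0, 86 of the 310 were called, of 364 among all rows, and the median of the 310 was 0.39. With only the compared groups in the fit, 0 were called, of 0 among all rows. The call count rested on single libraries. It was 48, 0 and 6 without CUMS-Sal replicates 1, 2 and 3, where 294, 0 and 21 of all rows were called, and 64 without Ctrl-Sal replicate 2, where 335 were. It was 124 of 584 without CUMS-Flx replicate 2, and 111 of 499, 118 of 513 and 121 of 569 without CUMS-Alb replicates 1, 2 and 3.

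Between CUMS-Flx and CUMS-Sal, limma called 0 of the 310 genes and 0% of all rows lower. At an unadjusted p under 0.05, 213 of the 310 were lower (68.7%), against 7.76% of all rows, and limma-voom on the recovered reads also called 0. The median log2 difference was -0.32 for the 310 genes and -0.05 for all rows, and the smallest adjusted p among the 310 was 0.298. Without CUMS-Flx replicate 1 the median of the 310 was -0.28. Between CUMS-Alb and CUMS-Flx limma called 0 of the 310 and 0% of all rows higher, with 82 (26.5%) at an unadjusted p under 0.05, against 4.05% of all rows, and 0 by limma-voom. The median log2 difference was 0.22, against 0.04 for all rows, and the smallest adjusted p was 0.62. Without CUMS-Flx replicate 1 the median was 0.17, and 11 of the 310 genes turned lower in CUMS-Alb. The difference between the drugs that defines these genes therefore passed the test in none of them.

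Against Ctrl-Sal, the drug groups gave these values side by side, sharing the Ctrl-Sal libraries. In CUMS-Alb 41 of the 310 genes (13.2%) were called higher by limma, where 2.18% of all rows were, and 267 had an unadjusted p under 0.05, against 23% of all rows. Their median log2 difference was 0.40. In CUMS-Flx 0 of the 310 were called higher by limma, where 0.0328% of all rows were, with 55 at an unadjusted p under 0.05 against 13.4% of all rows, 0 by limma-voom and a median log2 difference of 0.19. The 41 became 0 without any 1 of the CUMS-Alb replicates, without CUMS-Flx replicate 2, CUMS-Sal replicate 1 or 3 or Ctrl-Sal replicate 2. In these fits only 0 to 5 of all rows were called. The 41 became 3 without CUMS-Flx replicate 3 or CUMS-Sal replicate 2, where 16 of all rows were called each time. The 41 became 80 and 154 when Ctrl-Sal replicates 1 and 3 were left out, where 528 and 2075 of all rows were called. Leaving out Ctrl-Sal replicate 3 gave 7 calls among the 310 for CUMS-Flx against Ctrl-Sal, of 487 among all rows. With Ctrl-Sal replicate 2 left out, the median log2 difference of the 310 genes from Ctrl-Sal was 0.06 in CUMS-Flx and 0.27 in CUMS-Alb, against 0.38 in CUMS-Sal. With CUMS-Flx replicate 1 left out instead, it was 0.23 in CUMS-Flx.

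The most abundant of the 310 genes, 1436 bp long, stood at 133, 109 and 123.4 FPKM in Ctrl-Sal, 173, 164 and 170 in CUMS-Sal, 130, 133 and 151 in CUMS-Flx, and 161, 157 and 153 in CUMS-Alb. CUMS-Flx replicates 1 and 2 lay at the level of Ctrl-Sal replicate 1, and replicate 3 lay just below the lowest CUMS-Alb library. Means were 122 ± 11.9, 169 ± 4.34, 138 ± 11.3 and 157 ± 3.81 FPKM (SD, n = 3), and each library held 2456 to 3919 of its reads. Its log2 difference of CUMS-Sal from Ctrl-Sal was 0.47 (SE 0.08, limma adjusted p = 0.0162), and the limma adjusted p was 0.0708 without CUMS-Sal replicate 2 and 0.0588 without CUMS-Sal replicate 3. The lowest and highest adjusted p among all alternatives were 0.00707 and 0.126. CUMS-Flx lay -0.30 from CUMS-Sal (SE 0.08, adjusted p = 0.336).

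The second most abundant gene, of 1601 bp, stood at 121, 85.8 and 111 FPKM in Ctrl-Sal, 149, 135 and 140 in CUMS-Sal, 109, 116 and 126 in CUMS-Flx, and 146, 127 and 135 in CUMS-Alb. All CUMS-Alb libraries lay above all CUMS-Flx libraries, the narrowest gap being 127 against 126. The low Ctrl-Sal replicate 2 was again visible. Its stress difference was 0.43 (SE 0.11, limma adjusted p = 0.037), and leaving out Ctrl-Sal replicate 2 gave an adjusted p of 0.0703. The call was also lost without any 1 of the CUMS-Sal or CUMS-Alb replicates and without CUMS-Flx replicate 2, at adjusted p of 0.0516 to 0.101, and at 0.0642 with median deviations set to 0 (log2 difference 0.33), 0.0639 without a filter above 0 and 0.134 with only the compared groups. Among all alternatives the adjusted p lay between 0.0217 and 0.134.

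**Figure D4:**
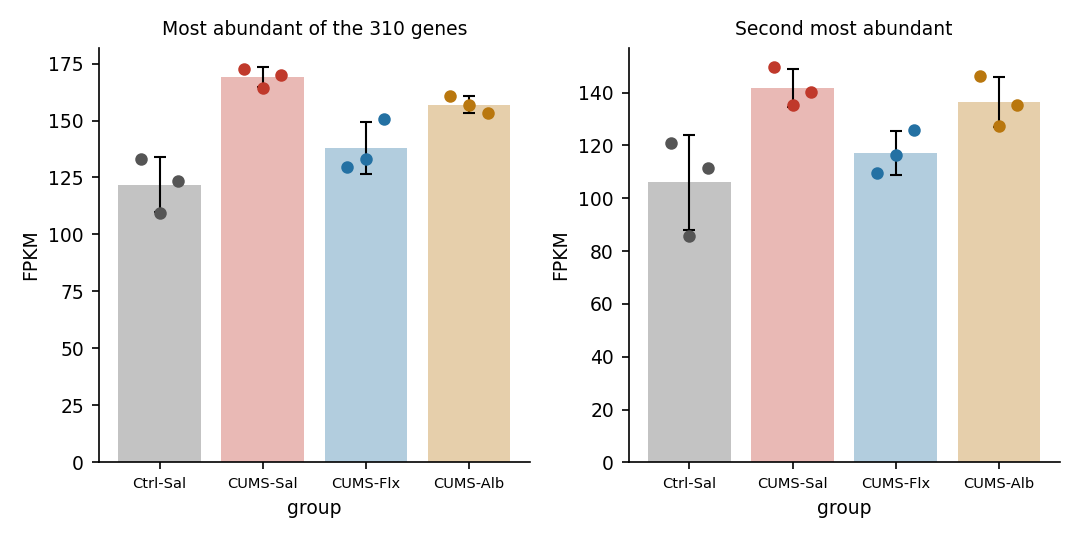
FPKM of the 2 most abundant of the 310 genes in each library (points, replicates 1 to 3 from left to right), with the group mean (bar) and SD (error bar, n = 3). In both genes the CUMS-Sal points lie above all Ctrl-Sal and CUMS-Flx points and the CUMS-Alb bar lies between the CUMS-Flx and CUMS-Sal bars.

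The largest ratios of CUMS-Sal to Ctrl-Sal belonged to thinly read genes. ENSRNOG00000042665, 192 bp long, had few reads, namely 2, 0 and 2 for Ctrl-Sal, 3, 6 and 5 for CUMS-Sal, 1, 2 and 3 in CUMS-Flx and 7, 4 and 2 in CUMS-Alb. Its ratio of 3.51 from pooled reads had an exact 95% interval of 1.101 to 14.6, and it also had the largest CUMS-Alb to CUMS-Flx ratio, 2.27 with an interval of 0.803 to 7.27. The intervals cover counting error only, and that of the drug ratio includes 1. ENSRNOG00000057228, of 640 bp, stood at 2.65, 0.799 and 2.81 FPKM in Ctrl-Sal, 5.09, 6.40 and 6.30 in CUMS-Sal, 2.09, 3.27 and 4.31 in CUMS-Flx and 4.25, 4.48 and 3.81 in CUMS-Alb. Here CUMS-Flx replicate 3 lay within the CUMS-Alb range, and the CUMS-Alb mean had a place of only 0.545. The log2 difference of CUMS-Sal from Ctrl-Sal was 1.42 (SE 0.31, limma adjusted p = 0.0282). The adjusted p was 0.0512, 0.0970 and 0.0746 without CUMS-Sal replicates 1, 2 and 3, with 0.0114 and 0.128 as the lowest and highest among all alternatives.

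The lowest places under fluoxetine were below the Ctrl-Sal mean. ENSRNOG00000047943, of 1080 bp, stood at 1.07, 1.07 and 1.09 FPKM in Ctrl-Sal, 1.60, 1.14 and 1.81 in CUMS-Sal, 0.862, 1.11 and 0.869 in CUMS-Flx and 1.68, 1.52 and 1.397 in CUMS-Alb, a place of -0.292 for CUMS-Flx and 1.04 for CUMS-Alb. CUMS-Sal replicate 2, at 1.14, lay only just above CUMS-Flx replicate 2, at 1.11. From CUMS-Sal to CUMS-Flx its log2 difference was -0.47 (SE 0.14, limma adjusted p = 0.384). ENSRNOG00000015554, of 1433 bp, stood at 4.50, 3.39 and 3.98 FPKM in Ctrl-Sal, 7.22, 4.63 and 5.17 in CUMS-Sal, 3.29, 3.76 and 3.47 in CUMS-Flx and 4.66, 5.14 and 5.55 in CUMS-Alb. All CUMS-Alb libraries lay above all Ctrl-Sal and CUMS-Flx libraries, and CUMS-Sal replicate 1 was well above the rest of its group. Its log2 difference between CUMS-Flx and CUMS-Sal was -0.60 (SE 0.15, limma adjusted p = 0.334).

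ENSRNOG00000019884, of 1014 bp, had the second largest CUMS-Alb to CUMS-Flx ratio, 2.11, and low and high sets that did not overlap. It stood at 0.803, 0.693 and 0.917 FPKM in Ctrl-Sal and 0.746, 0.590 and 0.926 in CUMS-Flx, and at 1.57, 1.35 and 1.09 in CUMS-Sal and 1.66, 1.61 and 1.49 in CUMS-Alb. CUMS-Alb lay above CUMS-Flx by 0.74 log2 units (SE 0.14), the adjusted p of 0.62 being the smallest of the 310 genes in that comparison. The libraries held 10 to 28 of its reads, and the ratio of pooled reads was 2.09 with an exact 95% interval of 1.41 to 3.14 for counting error.

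The 310 genes were not set apart by length but were less abundant than other stress-raised genes. Their median length was 2262 bp, against 2237 bp for all stress-raised and 2148 bp for all expressed genes. Their median level was 5.92 FPKM, against 7.37 and 10.8 FPKM. Genes with both drug means at or above the midpoint were longer and more abundant, at medians of 2419 bp and 10.5 FPKM. The 64 genes below the midpoint under both drugs were shorter and lower, at 1412 bp and 3.15 FPKM, as were the 22 found with the drugs exchanged, at 1243 bp and 4.28 FPKM. These are values across genes, which are not replicates, and no test was made.

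By level, the 310 genes made up 22.5% of the stress-raised genes with a mean of up to 5.97 FPKM (of 693 genes), 21.1% of those up to 18.9 FPKM (of 540) and 11.2% of those above (of 358). The median place of CUMS-Flx over all stress-raised genes rose with level in the same way, at 0.519, 0.603 and 0.714, and that of CUMS-Alb went from 0.808 to 0.865 and 0.935. Lower-level stress-raised genes thus had median places nearer the Ctrl-Sal mean under both drugs. By median reads, from low to high, the places also rose, at 0.518, 0.592 and 0.712 for CUMS-Flx and 0.778, 0.850 and 0.945 for CUMS-Alb. High CUMS-Sal and low Ctrl-Sal values chose these genes, so some return is built in under either drug. Whether counting noise makes it larger in thinly read genes was not tested. No drug effect is therefore read from the rise with level. By length the shares were closer, at 18.1, 19.0 and 21.2% of the stress-raised genes from the shortest to the longest of 3 equal groups.

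**Figure D5:**
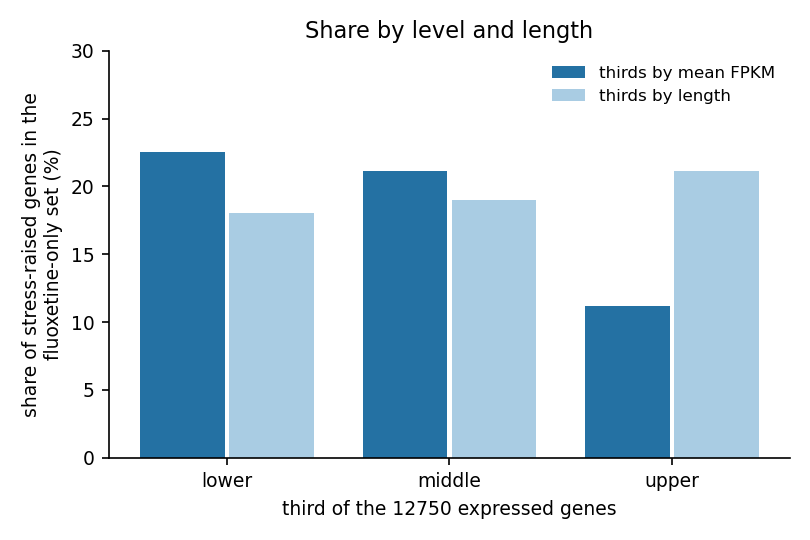
Share of stress-raised genes that belong to the 310 (percent) in 3 equal groups of the expressed genes, by mean FPKM (dark bars) and by length (light bars). The share falls from 22.5 to 11.2% with level and goes from 18.1 to 21.2% with length.

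Depth differed widely among the 310 genes. Their median reads per library were 237, with 183 genes at 100 reads or more in every library, 60 under 50 reads in their lowest library, and 7 under 10. The 60 thin genes had a median stress ratio of 1.69, the 183 deeper ones 1.41, and the 19 genes with 1000 reads or more in every library 1.3965. In the same order, the median places were 0.278, 0.332 and 0.339 for CUMS-Flx and 0.791, 0.741 and 0.766 for CUMS-Alb. With the reads of 3 libraries pooled, counting error alone gave a median SE of 0.08 log2 units for each comparison. The difference exceeded 2 such errors in 304 of the 310 genes between CUMS-Flx and CUMS-Sal, against 31.3% of all 12750 genes in the same direction, and in 240 between CUMS-Alb and CUMS-Flx, against 25.4%. Both contrasts chose the genes.

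The number of genes that met the rule changed with the libraries and the scaling. It was 493 without CUMS-Sal replicate 1 and 567 without CUMS-Flx replicate 3. Without CUMS-Flx replicate 1 it was 239, of which 225 were among the 310, and without Ctrl-Sal replicate 2 it was 224, of which 164 were. After setting every library's median deviation to 0 it was 132, all among the 310, and after quantile normalization 95, of which 94 were. With values rescaled to the summed FPKM outside the 9 genes that each held over 1% of it, the number was 265, of which 247 were among the 310. The exchanged rule found 16 to 46 genes under the same scalings and with each library left out, below the fluoxetine count each time.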

How the data were processed

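The authors deposited 1 table of FPKM for 28959 rows and 12 libraries; per the submitters' processing notes TopHat2 and build rn6 were used, and no source used here names the read counter, annotation release or strand setting. The header names no unit, and FPKM was read from the values. Each gene's length and reads were solved from its FPKM steps as whole numbers (within 0.001 of a read), for 22737 of 22737 rows above 0, and summed to 99.99% of each total. The step and the test were also run on simulated data. Those had the same added spread in every gene and group and no outlying library, unlike the data here, so nothing is read from them. FPKM scales with a library's total, so a change in a few abundant genes shifts all others.

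Groups were taken from sample titles. Limma 3.58.1 in R 4.3.3, with trend and robust settings, was fitted to log2(FPKM + 0.5) of all 12 libraries, keeping the 15253 rows that averaged 0.5 FPKM or more, 1 coefficient per group, with Benjamini-Hochberg adjustment over all rows; a fold on this scale understates the change of low genes. The members and lists were chosen with earlier results of these data known. The rule for named genes (largest stress ratio, lowest place under fluoxetine, largest CUMS-Alb to CUMS-Flx ratio, highest level) was applied to IDs, since 0 matched a symbol, up to 2 per comparison, with the 2 most abundant genes left unnamed, and 41 gene and marker lists could not be used. Replicates differed by more than counting noise in every pair. The labels name no batch. Alternatives were those of the closing section, among them limma-voom on the solved reads, for rows averaging 10 or more. Figures used matplotlib 3.10.9 and Python 3.11.15.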

Additional observations from a re-analysis of the deposited data

How the results depend on the processing

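The number of genes meeting the rule was 132 with median deviations set to 0, 95 after quantile normalization, 170 at a minimum of 5 FPKM and 117 at a ratio of 1.5, with 224 to 567 when 1 library was left out. In all other settings of the rule it stayed within 1.5 times 310. For CUMS-Sal against Ctrl-Sal, genes called higher numbered 1228, 205 of them among the 310. These became 364 and 86 with median deviations set to 0, 297 and 58 after quantile normalization, 218 and 48 without a filter above 0, and 0 and 0 with only the compared groups in the fit, with 0 to 2315 and 0 to 247 when 1 library was left out. For CUMS-Alb against Ctrl-Sal the main counts were 332 and 41. They became 10 and 2 with median deviations set to 0, 47 and 6 after quantile normalization, 854 and 76 at a minimum of 5 FPKM, 1 and 0 without a filter, 0 and 0 with only the compared groups, and 1089 and 115 by limma-voom, with 0 to 2075 and 0 to 154 when 1 library was left out. For CUMS-Flx against Ctrl-Sal the 5 genes called became 3 with median deviations set to 0, 10 after quantile normalization, 2 without a filter, 0 with only the compared groups and 39 by limma-voom, with 1 to 487 when 1 library was left out, and 0 to 7 of the 310. Against CUMS-Sal, fluoxetine had 0 genes called lower; the count was 1 with median deviations set to 0, after quantile normalization and at a pseudocount of 0.1, 4 with only the compared groups, and 0 to 2 when 1 library was left out. CUMS-Alb against CUMS-Flx had 0 genes called higher, 1 with only the compared groups and 0 to 2 when 1 library was left out. None of the 310 was called in either of these last comparisons under any alternative run. The cause of these changes was not tested.

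With the replicate number as a block, CUMS-Sal against Ctrl-Sal called 509 genes higher, 119 of the 310; CUMS-Alb against Ctrl-Sal called 0 and 0, and CUMS-Flx against Ctrl-Sal 0. Same-numbered libraries of different groups had deviations correlated at -0.159 to 0.127 (median -0.01 over 18 pairs). Libraries with different numbers had -0.206 to 0.289 (median 0.005 over 36 pairs), so these correlations gave no sign of pairing by number. The highest, 0.289, was between Ctrl-Sal replicate 2 and CUMS-Flx replicate 1, and its cause was not tested. Limits: 3 libraries a group, 1 table of normalized values, no gene names, and members chosen with every library.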

Other observations

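Rows without an Ensembl ID were outside the rule. Of 1891 such rows, 848 had a mean of at least 1 FPKM, 99 of these met the stress conditions and 20 met all conditions of the rule.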
